A study of Mus musculus with 42 samples.

Results

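The 6 libraries described here were made from 70 ng of RNA with the TruSeq RNA kit v2 (named Tru70) and are 6 of the 42 libraries of a study that compared 7 library protocols or RNA amounts on the same liver RNA. They were chosen by the protocol and RNA amount in their labels, and they fall into 3 input libraries and 3 IP libraries. Input is RNA of whole liver, and IP is RNA that came down with ribosomes carrying a hemagglutinin (HA) tag. The question put to them was which liver cell types and gene programs were gained or lost in the IP.

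Both groups came from the same 3 mice, all of genotype Gfi1Cre/+;Rpl22HA/HA, so every library carried the Cre knock-in and the tagged allele. No IP from mice without Cre was among these libraries, and RNA held by the beads or antibody without the tag was not measured. The methods and the growth protocol give the age as 30 days, and another label gives postnatal day 1. In RiboTag mice the last exon of Rpl22, a protein of the large ribosomal subunit, is exchanged for a tagged copy in cells that have ever expressed Cre and in all their descendants. Cre stands here in one copy of Gfi1, which encodes a transcriptional repressor of blood stem cells, granulocytes, lymphocytes and some sensory cells. The mark is therefore one of lineage history, and a tagged cell need not contain Gfi1 RNA when the liver is taken.

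Liver is mostly hepatocytes, which make albumin, clotting factors, complement, apolipoproteins, urea and bile acids. The sinusoids between them are lined by fenestrated endothelial cells and hold Kupffer cells, the resident macrophages of the liver, while stellate cells lie behind the endothelium and cholangiocytes line the bile ducts. Lymphocytes, granulocytes, red cells and platelets pass through with the blood. In such bulk samples a smaller number of cells of one type and less RNA per cell cannot be told apart.

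The counts were whole numbers of reads on the exons of Ensembl genes. Their total was 25797283 to 33797108 per library, 14430 to 16082 genes had at least 1 read, and 3 counts, the floor used here, came to 0.0888 to 0.116 CPM. CPM are counts scaled to the same library total over all genes and are given below in the order of mice 1, 2 and 3. Floors and ranges of depth cover counting error only. The paper reports that most read pairs of the Tru70 libraries were duplicates and that its comparisons kept them. Several reads can therefore come from the same molecule, so folds given by the floor are bounds on reads and not on molecules. Genes with few reads share this limit. Over 13638 genes with a mean above 1 CPM, Spearman's correlation was 0.962 to 0.966 between input libraries, 0.905 to 0.946 between IP libraries and 0.725 to 0.761 between the fractions. IP 1 stood somewhat apart, with the fewest genes (14430) and 7.92% of its assigned reads on no feature, against 3.18% to 5.44% in the other 5 libraries.

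Of 14707 genes tested with edgeR, 2665 (18.1%) were higher in IP and 2458 (16.7%) lower at a Benjamini-Hochberg adjusted p under 0.05, 34.8% in all. The log2 fold change had a median of -0.03 over all genes tested, and 678 of the called genes rose by over 16-fold while 155 fell by as much. Of the 678, 414 had a mean under 1 CPM in input. In 34.1% of the genes every IP library was above every input library, and in 17.0% every IP library was below, 51.1% in all. The split between higher and lower depended on the scaling: with library totals in place of trimmed mean (TMM) factors, 3815 genes (25.9%) were higher and 1462 (9.94%) lower, the median rose by 0.43 on the log2 scale, and the higher share of the calls went from 52.0% to 72.3%. Log2 fold changes below are those with TMM factors unless another scaling is named, and list medians are to be read beside the -0.03 of all genes.

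Gfi1 itself (chromosome 5, 107716657 to 107726036 on GRCm38) had 0, 0 and 0 CPM in input and 0.968, 0.537 and 0 CPM in IP. It was above the floor in 2 of 3 IP libraries and fell under the filter of the test, so no change was tested, and the mean of the IP libraries was at least 5.04-fold higher than the floor of the input. Rpl22 had 87.5, 73.5 and 81.9 CPM in input and 150, 82.5 and 77.8 CPM in IP. IP 1 was the only IP library above all input libraries, and the gene did not pass (log2 fold change -0.03, SE 0.32, adjusted p = 0.963). Exon counts of Rpl22 do not separate tagged from untagged transcripts, so the share of recombined cells was not measured.

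**Figure D1:**
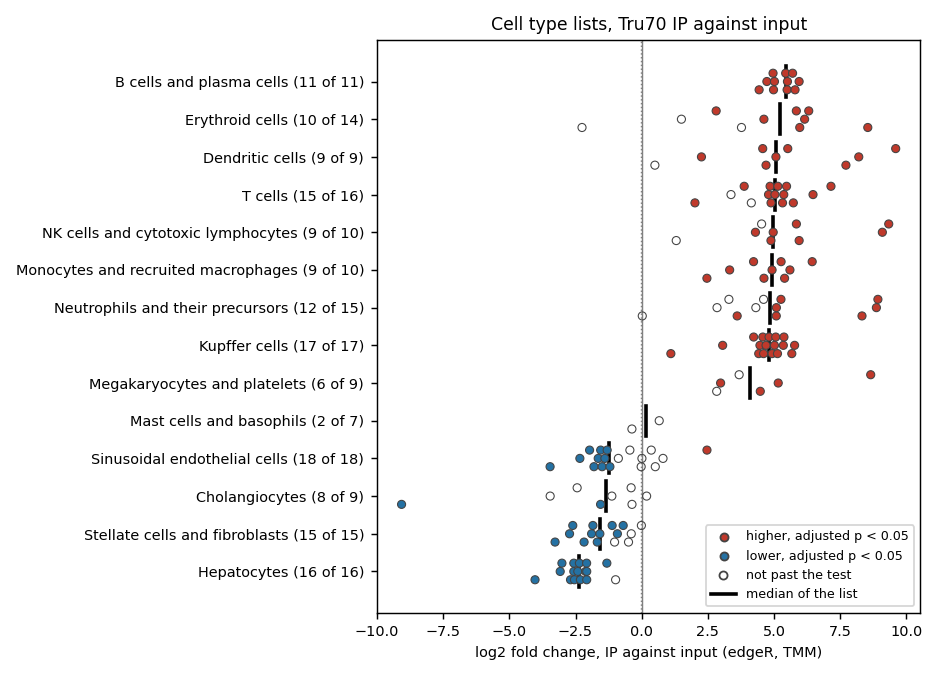
Log2 fold change of IP against input for the tested members of 14 cell type lists, with 1 point per gene, the number tested of all members in brackets and a bar at the list's median. Medians of the 9 blood and macrophage lists with more than 2 tested members lie between 4.08 and 5.44, and those of the endothelial, cholangiocyte, stellate and hepatocyte lists between -2.38 and -1.25.

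Genes of Kupffer cells were all gained in the IP. All 17 members of the list passed as higher, against 18.1% of all genes tested, with a median log2 fold change of 4.81. For each of them every IP library was above every input library, against 34.1% of all genes tested. Together they made up 0.0860, 0.0840 and 0.0770% of the input counts and 2.26, 3.33 and 2.97% of the IP counts. The rises ran from 1.1 for Nr1h3, the liver X receptor alpha gene, to 5.77 for C1qa.

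Clec4f, a lectin found in rodent Kupffer cells, had 147.6, 132 and 123 CPM in input and 6314, 8647 and 7533 CPM in IP. Every IP library was far above every input library, and the ratio of the mean CPM was 55.9 (log2 fold change 5.37, SE 0.22, adjusted p = 3.42e-06). Cd5l, a secreted protein of tissue macrophages, had 120.1, 104 and 109.7 CPM in input and 3419, 6055 and 5729 CPM in IP. IP 1 was the lowest of the IP libraries and still far above the input libraries (log2 fold change 5.06, SE 0.24, adjusted p = 3.92e-06). Vsig4, a receptor for complement fragments, had 23.4, 17.8 and 16.9 CPM in input and 319.5, 716 and 668 CPM in IP. IP 1 again was the lowest IP library and the groups did not overlap (log2 fold change 4.42, SE 0.3, adjusted p = 1.36e-05).

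Timd4, a receptor for phosphatidylserine on dying cells, had 6.63, 8.52 and 10.8 CPM in input and 143, 300.3 and 222 CPM in IP. It had the same order, with IP 1 lowest and no overlap (log2 fold change 4.23, SE 0.31, adjusted p = 1.87e-05). Marco, a scavenger receptor for bacteria, had 11.98, 13.3 and 12.6 CPM in input and 898, 870.5 and 798 CPM in IP. Its IP libraries lay close together (log2 fold change 5.67, SE 0.23, adjusted p = 3.42e-06). C1qa, a chain of complement C1q, had 33.3, 31.6 and 38.2 CPM in input and 2635, 2466 and 2441 CPM in IP. It too varied little within either fraction, and its mean rose 73.2-fold (log2 fold change 5.77, SE 0.24, adjusted p = 3.42e-06). Per kilobase of annotated exon (CPM over the exon length in GENCODE M21), the level in IP was 3034 ± 472 CPM for Clec4f, 2737 ± 436 CPM for C1qb, 2489 ± 706 CPM for Cd5l and 2417 ± 102 CPM for C1qa (mean ± SD, n = 3). Clec4f was above C1qa beyond their SDs, while C1qb and Cd5l did not differ from either beyond their spread. Timd4, with 102 ± 36.1 CPM, was below all of them.

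**Figure D2:**
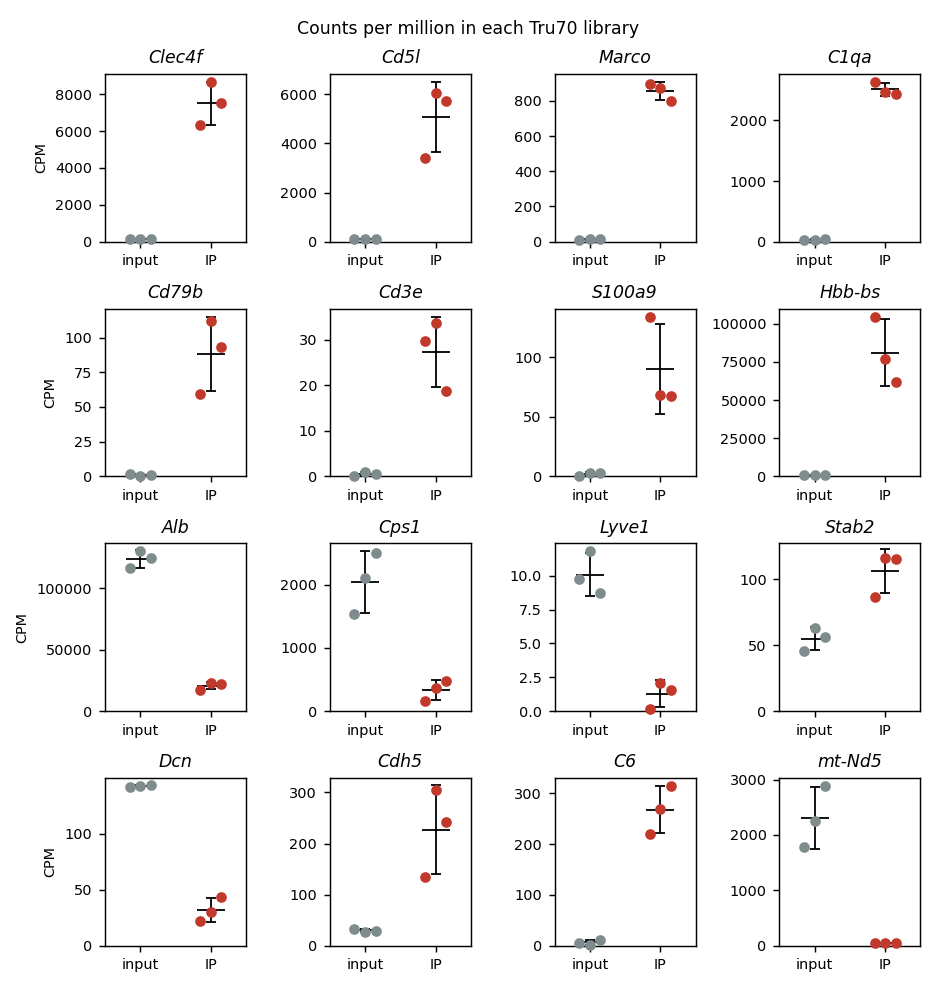
CPM of 16 genes in each Tru70 library, with 1 point per library, replicates 1 to 3 from left to right, the mean as a bar and the SD as the whisker; each axis starts at 0. The upper 8 genes, of macrophages, lymphocytes, neutrophils and red cells, are far lower in every input library than in any IP library. Of the others, Alb, Cps1, Lyve1, Dcn and mt-Nd5 are lower in IP, and Stab2, Cdh5 and C6 are higher.

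The programs of phagocytes followed the Kupffer cell markers, with which some of them share members. In the list of classical complement and its macrophage receptors 10 of 10 members were higher (median 5.04). Besides the C1q chains it holds C3ar1 and C5ar1, receptors of the complement anaphylatoxins, Itgam, a chain of complement receptor 3, and Vsig4. C5ar1 had 1.12, 0.0296 and 1.22 CPM in input and 58.4, 70.1 and 55.6 CPM in IP. No library of input reached the IP range (log2 fold change 5.87, SE 0.8, adjusted p = 4.99e-04). C3ar1 had 2.33, 2.25 and 1.03 CPM in input and 36.1, 91.8 and 54.2 CPM in IP. IP 2 was the highest library and the groups lay apart (log2 fold change 4.58, SE 0.44, adjusted p = 7.20e-05).

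Genes of antigen presentation by major histocompatibility complex (MHC) class II rose together: 11 of 11 were higher, with a median of 5.4. The list made up 0.0146, 0.0139 and 0.0135% of the input counts and 0.681, 0.981 and 0.920% of the IP counts. H2-Aa, an MHC class II alpha chain, had 17.5, 16.98 and 13.4 CPM in input and 900.1, 1078 and 1079 CPM in IP. The IP libraries differed little from each other (log2 fold change 5.57, SE 0.21, adjusted p = 3.42e-06). Cd74, the invariant chain, had 43.5, 49.95 and 44.6 CPM in input and 1596, 3335 and 3094 CPM in IP. IP 1 was the lowest IP library (log2 fold change 5.4, SE 0.28, adjusted p = 4.97e-06). Ciita, the transcriptional activator of class II genes, had 1.16, 0.237 and 0.654 CPM in input and 8.03, 27.4 and 27.3 CPM in IP. Its libraries did not overlap either (log2 fold change 4.47, SE 0.7, adjusted p = 0.00114). H2-Ab1, H2-Eb1 and H2-DMa rose by 5.34, 5.78 and 5.22 on the log2 scale.

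Of 7 receptors for the Fc part of antibodies, 5 were higher: Fcgr1, Fcgr3 and Fcgr4, activating IgG receptors, with 5.59, 4.51 and 4.9, their signalling chain Fcer1g with 5.34, and the neonatal receptor Fcgrt with 1.03. Fcgr2b, the inhibitory IgG receptor, which liver sinusoidal endothelium also makes, had 35.4, 34.6 and 34.02 CPM in input and 26.1, 33.7 and 44.04 CPM in IP. Its groups overlapped and it did not pass (log2 fold change -0.45, SE 0.22, adjusted p = 0.148). Of 13 scavenger and efferocytosis receptors 7 were higher and 6 did not pass (median 1.92). Marco, Msr1, a class A scavenger receptor, and Cd163, the receptor for haptoglobin bound to hemoglobin, rose by 5.67, 3.78 and 4.6. Cd36, a fatty acid translocase, and Stab1 and Stab2, the stabilins, had log2 fold changes of 0.56, -0.02 and 0.51 and did not pass.

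All 18 genes of the oxidative burst and of phagocyte signalling were higher (median 4.77), from 2.68 for the phosphatase gene Ptpn6 to 5.36 for Cyba. Cybb, the catalytic subunit of the phagocyte NADPH oxidase, had 12.2, 9.23 and 9.44 CPM in input and 157, 327 and 247 CPM in IP. Its groups lay apart (log2 fold change 4.12, SE 0.28, adjusted p = 1.31e-05). Ncf1, a cytosolic subunit of that oxidase, had 4.61, 5.09 and 2.62 CPM in input and 178, 199 and 177 CPM in IP. IP libraries were close to each other (log2 fold change 5.08, SE 0.29, adjusted p = 6.63e-06). Rac2, the GTPase of the oxidase in blood cells, had 6.12, 11.1 and 7.69 CPM in input and 287, 504 and 445 CPM in IP. IP 1 was lowest among the IP libraries (log2 fold change 5.18, SE 0.31, adjusted p = 7.31e-06).

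Some of these genes are shown with the RefSeq sequence of up to 250 bases before their start, since Spi1, the gene of the factor PU.1 that drives macrophage genes, rose too. The letters GAGGAAGT, a PU.1 type site, were searched on both strands. They occurred in 2.79% of the 27025 genes with a promoter sequence, in 1 of the 13 Kupffer cell genes that have one (C1qc) and in 2 of 12 genes of the oxidative burst list (Inpp5d, an inositol phosphatase, and Vav1, an exchange factor of Rac GTPases). The 3 windows were printed because they hold the match, which is in capitals, and lie on GRCm38.p6 at chr4:136893066-136893164 on the minus strand, chr17:57278850-57279099 on the plus strand and chr1:87620062-87620311 on the plus strand. The GENCODE gene of C1qc begins 151 bases upstream of the RefSeq start, and its window was cut to the 99 bases before that. A match is a description of letters and not evidence of binding.
C1qc: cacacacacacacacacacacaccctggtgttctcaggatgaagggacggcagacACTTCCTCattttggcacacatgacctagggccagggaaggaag
Vav1: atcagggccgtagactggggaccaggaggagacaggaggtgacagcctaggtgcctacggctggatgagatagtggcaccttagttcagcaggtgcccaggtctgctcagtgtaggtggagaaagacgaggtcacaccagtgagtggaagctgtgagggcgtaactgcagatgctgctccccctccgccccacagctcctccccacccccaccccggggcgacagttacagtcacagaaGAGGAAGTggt
Inpp5d: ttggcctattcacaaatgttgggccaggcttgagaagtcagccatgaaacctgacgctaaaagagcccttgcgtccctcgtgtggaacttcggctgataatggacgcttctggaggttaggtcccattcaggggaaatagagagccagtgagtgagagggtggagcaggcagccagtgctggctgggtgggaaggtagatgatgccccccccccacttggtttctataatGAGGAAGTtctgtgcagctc

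Markers of monocytes and recruited macrophages were higher in 9 of 10 members (median 4.92), at levels far below those of Kupffer cell genes: the list made up 0.00146, 0.00169 and 0.00156% of the input counts and 0.0288, 0.0405 and 0.0278% of the IP counts. Ly6c2, a surface protein of inflammatory monocytes, had 0.0388, 0.355 and 0.654 CPM in input and 32.9, 50.8 and 45.3 CPM in IP. All IP libraries were well above input (log2 fold change 6.44, SE 0.66, adjusted p = 1.02e-04). Ccr2, the chemokine receptor that brings monocytes out of the marrow, had 0.426, 1.39 and 0.405 CPM in input and 60.03, 25.7 and 25.9 CPM in IP. IP 1 was the highest library (log2 fold change 5.26, SE 0.67, adjusted p = 3.40e-04). Cx3cr1 rose by 4.92 and passed without any 1 library. Chil3 and F13a1 passed with 3.32 and 5.4, but Chil3 lost the call in 5 of the 6 fits that leave out 1 library and F13a1 in 3, in which its log2 fold change ran from 4.79 to 10.75. S100a4 had too few unique counts for the test (0 in input and 0.107, 1.11 and 0.0321 CPM in IP), but 0.112, 0.439 and 0.0522 RPKM in input and 14.9, 13.7 and 13.1 RPKM in IP, where RPKM includes reads that the counts left out. Without IP 2 only 5 of the members passed.

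Neutrophil genes were higher for 7 of 15 members, while 5 did not pass and 3 were not tested (median 4.84, or 4.38 with genes at 0 in input put at the floor). S100a8, a calcium-binding protein of granules and cytosol in neutrophils, had 0, 0.118 and 0 CPM in input and 36.5, 13.9 and 39.2 CPM in IP. Input 2 was the only input library with any read, and the fitted log2 fold change was 8.92 (SE 0.93, adjusted p = 1.11e-04). S100a9, its partner, had 0.543, 2.66 and 2.803 CPM in input and 134, 68.7 and 67.6 CPM in IP. IP 1 was the highest library and the groups lay apart (log2 fold change 5.09, SE 0.63, adjusted p = 2.96e-04). Mmp8, a collagenase of neutrophil granules, was at 0 in all input libraries and had 0.430, 2.58 and 1.701 CPM in IP, a mean at least 15.8-fold higher than input by the floor (adjusted p = 0.0273, and 0.137 with a replicate block). Mmp9, Retnlg and Ngp had log2 fold changes of 5.26, 5.08 and 2.84, of which Mmp9 and Retnlg passed. With 1 library left out, Retnlg lost the call in 3 of the 6 fits and Mmp8 in 5.

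Dendritic cell genes were higher for 8 of 9 members (median 5.07). Flt3, the receptor of the growth factor for dendritic cells, had 0.0388, 0.266 and 0.592 CPM in input and 11.3, 22.4 and 25.1 CPM in IP. The groups lay apart (log2 fold change 5.52, SE 0.8, adjusted p = 7.16e-04). Xcr1, a chemokine receptor of cross-presenting dendritic cells, had 0.116, 1.54 and 0.343 CPM in input and 18.7, 23.2 and 23.3 CPM in IP. The IP libraries lay within a narrow range (log2 fold change 4.57, SE 0.8, adjusted p = 0.00207). Siglech, a lectin of plasmacytoid cells, had 0, 0 and 0.0935 CPM in input and 10.8, 15.4 and 17.1 CPM in IP. Zbtb46, a transcription factor of classical dendritic cells and endothelium, had 6.16, 3.79 and 4.77 CPM in input and 12.7, 8.72 and 5.59 CPM in IP. Its groups overlapped and it did not pass (log2 fold change 0.5, SE 0.52, adjusted p = 0.519). Of the mast cell and basophil genes none of 7 passed and 5 were too low to test, at unadjusted p values of 0.598 and 0.566 for the tested Kit and Gata2. By unique counts Cpa3, Ms4a2 and Cma1, of mast cells and basophils, had reads in IP 2 alone and Mcpt8 in IP 1 alone, while by RPKM all 4 had reads in IP 1.

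Lymphocyte genes rose from levels near the floor. For T cells, 13 of 16 members were higher (median 5.03). Cd3e, a chain of the T cell receptor complex, had 0.0388, 0.917 and 0.498 CPM in input and 29.8, 33.7 and 18.7 CPM in IP. Every IP library was above every input library (log2 fold change 5.37, SE 0.79, adjusted p = 8.05e-04). Cd3d, another chain, had 0, 0.355 and 0 CPM in input and 24.1, 16.6 and 33 CPM in IP. Only input 2 had reads (log2 fold change 7.15, SE 1.06, adjusted p = 8.20e-04). Cd3g, Cd247, Trac and Trbc2, other parts of the receptor, rose by 6.47, 5.73, 4.88 and 5.47.

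Among genes of natural killer (NK) and cytotoxic cells 7 of 10 were higher (median 4.97, and 4.88 with genes at 0 in input put at the floor). Gzma, a granzyme, had 0.349, 0.355 and 1.34 CPM in input and 16.9, 25.6 and 47.8 CPM in IP. No library of one fraction reached the other (log2 fold change 4.97, SE 0.66, adjusted p = 4.51e-04). Ncr1, an activating receptor of NK cells, was at 0 in input and had 1.36, 5.07 and 2.99 CPM in IP, a mean at least 31.5-fold higher than input by the floor (adjusted p = 0.0101). Eomes, a transcription factor of these cells, was at 0 in input and had 2.33, 4.09 and 1.28 CPM in IP, a mean at least 25.8-fold higher than input by the floor (adjusted p = 0.0128, and 0.0571 with a replicate block).

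All 11 genes of B cells and plasma cells were higher, with the highest median of the cell type lists, 5.44. Mzb1, a member of the list, lost the call in 5 of the 6 fits that leave out 1 library. Cd79b, a signalling chain of the B cell receptor, had 1.82, 0.355 and 1.03 CPM in input and 59.5, 112 and 93.5 CPM in IP. Its mean rose 82.7-fold (log2 fold change 5.95, SE 0.54, adjusted p = 4.97e-05). Cd79a, the other chain, had 0.426, 1.06 and 0.623 CPM in input and 75.8, 34.4 and 34.03 CPM in IP. IP 1 was the highest library (log2 fold change 5.7, SE 0.57, adjusted p = 8.15e-05). Ms4a1, Pax5 and Cd22 rose by 4.96, 4.43 and 4.73. The whole list made up 0.00172, 0.00153 and 0.00176% of the input counts and 0.0803, 0.0911 and 0.0920% of the IP counts.

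By mean CPM, globin messenger RNAs gained more than any other gene in the IP. The 4 adult globin genes (the beta globins Hbb-bs and Hbb-bt, the alpha globins Hba-a1 and Hba-a2) made up 0.246, 0.209 and 0.154% of the input counts and 22.6, 16.2 and 12.9% of the IP counts. Hbb-bs, an adult beta globin, had 1048, 939 and 625 CPM in input and 104661, 76729.5 and 61738 CPM in IP. IP 1 was highest and IP 3 lowest, and the groups lay apart (log2 fold change 6.15, SE 0.38, adjusted p = 8.83e-06). Hba-a1, an adult alpha globin, had 292, 257 and 169.6 CPM in input and 28241, 16238 and 13872 CPM in IP. The order of the libraries was the same (log2 fold change 5.97, SE 0.44, adjusted p = 1.80e-05). Hba-a1 and Hba-a2 are near-identical copies, as are Hbb-bs and Hbb-bt, so the split of reads within each pair is uncertain. Alas2, the first enzyme of heme synthesis in red cells, had 50.2, 57.8 and 18.5 CPM in input and 218, 623 and 366 CPM in IP. IP 2 was highest here, and the rise was smaller (log2 fold change 2.81, SE 0.46, adjusted p = 0.00142).

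Of the 14 erythroid members 7 were higher, 3 did not pass and 4 were not tested, among them Ahsp, which matched no gene name. The median was 5.23, and 4.41 with Hemgn, at 0 in input, put at the floor. With 1 library left out, Hemgn lost the call in 5 of the 6 fits and Slc4a1 in 3. Chosen after the values were seen, Klf1, a transcription factor of red cell precursors, had 1.98, 4.05 and 4.11 CPM in input and 1.22, 0.805 and 0.770 CPM in IP. It was lower in each IP library without passing (log2 fold change -2.26, SE 0.9, adjusted p = 0.0836), and Gata1, another such factor, had 0, 0 and 0 CPM and 0.0358, 0.805 and 0 CPM. The letters AGATAA, which belong to the site of GATA factors such as that of Gata1, occurred on either strand in 11.4% of all promoters and in 4 of 11 erythroid ones (Alas2, Epb42, Epor and Hbb-bs). It also occurred in 4 of 12 oxidative burst, 3 of 12 hepatocyte and 0 of 13 Kupffer cell promoters, so the match was not particular to erythroid genes. Windows are given for Alas2 (chrX:150547167-150547374 on the plus strand) and Hbb-bs (chr7:103828097-103828178 on the minus strand), the most abundant of the 4, with the match in capitals. Their GENCODE genes begin 42 and 168 bases upstream of the RefSeq starts, and 208 and 82 bases before the GENCODE starts are shown.
Alas2: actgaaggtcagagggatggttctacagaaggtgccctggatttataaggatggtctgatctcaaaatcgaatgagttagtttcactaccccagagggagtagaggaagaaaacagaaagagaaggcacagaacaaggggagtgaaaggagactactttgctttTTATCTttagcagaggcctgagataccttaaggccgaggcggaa
Hbb-bs: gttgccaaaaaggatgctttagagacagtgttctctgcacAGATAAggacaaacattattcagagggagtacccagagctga

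Platelet and megakaryocyte genes were higher for 4 of 9 members (median 4.08, and 3.96 with Gp1bb, without counts in input, put at the floor). Pf4, platelet factor 4, a chemokine of platelet granules, had 1.899, 1.63 and 0.810 CPM in input and 85.3, 59.7 and 57.3 CPM in IP. The fractions were separate (log2 fold change 5.16, SE 0.41, adjusted p = 2.93e-05). Itga2b, a chain of the fibrinogen receptor, had 2.87, 1.06 and 3.83 CPM in input and 26.1, 22.1 and 34.7 CPM in IP. Its rise was smaller (log2 fold change 2.98, SE 0.5, adjusted p = 0.00158). Gp1bb, of the receptor for von Willebrand factor, had no unique counts in input and 1.94, 1.98 and 1.77 CPM in IP (adjusted p = 0.0168, and 0.0918 with a replicate block). Its RPKM were 0, 0.306 and 0.137 in input and 0.606, 0.696 and 0.883 in IP, so no fold is given. Gp1bb lost the call in 3 of the 6 fits that leave out 1 library.

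**Figure D3:**
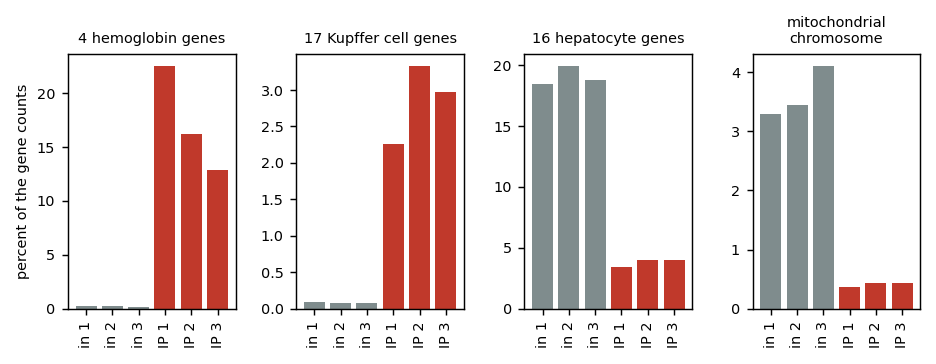
Percent of each library's gene counts on the 4 adult globin genes, the 17 Kupffer cell genes, the 16 hepatocyte genes and the mitochondrial chromosome, with 1 bar per library (in, input). Globins rise from at most 0.246% to at least 12.9%, Kupffer cell genes from at most 0.0860% to at least 2.26%, and hepatocyte and mitochondrial counts fall in every IP library.

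Transcription factors moved with the cell types in which they act. Of 20 hematopoietic factors 13 were higher (median 3.45). Spi1, the gene of PU.1, had 7.91, 9.91 and 6.79 CPM in input and 200.5, 335 and 313 CPM in IP. Its groups lay apart (log2 fold change 4.66, SE 0.25, adjusted p = 5.17e-06). Irf8, a factor of monocytes and dendritic cells, had 6.98, 7.22 and 8.47 CPM in input and 193, 256 and 238 CPM in IP. The IP libraries were close together (log2 fold change 4.48, SE 0.21, adjusted p = 3.92e-06). Cebpb and Runx1 rose by 1.19 and 3.93.

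Of 14 hepatocyte factors 11 were lower and none higher (median -1.7), but 7 were lower without input 1, 7 with library totals and 6 when tested against a 2-fold change. Hnf4a, the nuclear receptor that maintains hepatocyte identity, had 516, 584 and 561 CPM in input and 131, 180.1 and 225 CPM in IP. All IP libraries were below all input libraries (log2 fold change -2.08, SE 0.2, adjusted p = 6.44e-05). Foxa2, a pioneer factor, had 27.9, 21.6 and 62.2 CPM in input and 40.4, 12.2 and 55.6 CPM in IP. The mice differed more than the fractions did, with mouse 3 highest in both, and the gene did not pass (log2 fold change -0.48, SE 0.56, adjusted p = 0.566). Foxa1 had a log2 fold change of -0.11 and did not pass, Foxa3 and Cebpa fell by 1.58 and 0.83 on the log2 scale, and Cebpa did not pass with library totals. The letters of HNF4 (CAAAGTCCA), C/EBP (TTGCGCAA) and FOXA (TGTTTAC) sites were in 0 of 12 hepatocyte promoters in the 250-base window, and in 0.451%, 0.185% and 3.54% of all promoters.

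Hepatocyte markers were lower in IP for 15 of 16 members, against 16.7% of all genes tested, with a median of -2.38. They made up 18.4, 19.96 and 18.8% of the input counts and 3.44, 4.01 and 3.96% of the IP counts. Alb, serum albumin, had 116499, 130444 and 124779 CPM in input and 17175, 22725 and 22334 CPM in IP. All IP libraries were below all input libraries, and the mean was 5.97-fold lower (log2 fold change -3.02, SE 0.2, adjusted p = 1.35e-05). Apoa1, the main protein of high density lipoprotein, had 9069, 8425 and 6225 CPM in input and 3218, 2016 and 1892 CPM in IP. Input and IP libraries did not overlap (log2 fold change -2.12, SE 0.31, adjusted p = 7.51e-04). Ttr, the carrier of thyroid hormone and retinol-binding protein, had 8486, 9489.9 and 9339.9 CPM in input and 3065, 2515 and 3063 CPM in IP. The IP libraries lay close together (log2 fold change -2.08, SE 0.21, adjusted p = 8.61e-05).

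Cps1, the first enzyme of the urea cycle, had 1533, 2113 and 2504 CPM in input and 163, 371 and 478 CPM in IP. Mouse 1 was lowest in both fractions, and each IP library was below all input libraries (log2 fold change -3.08, SE 0.35, adjusted p = 1.89e-04). Hnf4a is given above, and Asgr1, a receptor for desialylated glycoproteins, fell by 1.32 on the log2 scale. Trf, transferrin, was chosen after its values were seen as the member that did not pass (log2 fold change -0.99, SE 0.36, adjusted p = 0.0622), which it did with a replicate block (adjusted p = 0.00312). Alb RNA was not absent from the IP: per kilobase of exon it had 52907 ± 2994 CPM in input and 8858 ± 1322 CPM in IP (mean ± SD, n = 3), the latter above the 3034 ± 472 CPM of Clec4f.

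The secreted products of hepatocytes fell together, with exceptions. Circulating complement was lower for 15 of 18 members (median -2.24). C3, the central complement protein, had 6754, 7564 and 6039 CPM in input and 1312, 1244 and 1163 CPM in IP. The groups lay apart (log2 fold change -2.87, SE 0.21, adjusted p = 1.94e-05). C4b, Hc and C8a fell by 1.53, 2.31 and 2.33 on the log2 scale. C6, a protein of the membrane attack complex, had 6.28, 1.86 and 11.4 CPM in input and 221, 269 and 314 CPM in IP. It was the one member that rose, in all 3 mice (log2 fold change 4.91, SE 0.58, adjusted p = 2.23e-04).

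Coagulation and fibrinolysis had 16 of 22 members lower and 1 higher (median -2.24). F2, prothrombin, had 2363, 2412 and 2412 CPM in input and 576, 522 and 578 CPM in IP. Both groups were tight and apart (log2 fold change -2.52, SE 0.19, adjusted p = 2.18e-05). F5, F7, F9 and F10, clotting factors, fell by 3.37, 1.6, 2.48 and 2.32. F13a1, the A chain of factor XIII, made by macrophages and megakaryocytes, had 0.426, 0 and 0 CPM in input and 7.96, 12.5 and 2.504 CPM in IP. It was the exception, at low counts, and lost the call without input 2, input 3 or IP 2 (log2 fold change 5.4, SE 1.6, adjusted p = 0.0275). Of apolipoproteins and lipid transport 13 of 19 were lower and 2 higher (median -1.96). Lpl, lipoprotein lipase, had 176, 222 and 186 CPM in input and 552, 638 and 523 CPM in IP. All IP libraries were above all input libraries (log2 fold change 1.13, SE 0.19, adjusted p = 0.00181). Abcg1, a cholesterol exporter, had 7.95, 7.58 and 4.58 CPM in input and 90.96, 146 and 134 CPM in IP. It also rose (log2 fold change 3.77, SE 0.27, adjusted p = 1.75e-05).

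Apoe, an apolipoprotein of hepatocytes and macrophages, had 22244, 21598 and 20166 CPM in input and 17683, 22379 and 19948 CPM in IP. Chosen after its values were seen, it overlapped between the groups (log2 fold change -0.52, SE 0.18, adjusted p = 0.0515), and with a replicate block its adjusted p was 0.0115. Per kilobase of exon Apoe had 9356 ± 1098 CPM in IP, which did not differ from the 8858 ± 1322 CPM of Alb beyond their spread (mean ± SD, n = 3).

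Most members of the metabolic programs of hepatocytes were lower. For the urea cycle 7 of 8 members were lower (median -2.23). Otc, ornithine transcarbamylase, had 357, 393 and 472 CPM in input and 102, 96.5 and 128 CPM in IP. No library of one fraction reached the other (log2 fold change -2.34, SE 0.21, adjusted p = 4.56e-05). For bile acids 11 of 14 were lower (median -2.37), and Cyp7a1, the rate-limiting enzyme of bile acid synthesis, had 86.1, 166 and 145 CPM in input and 14.9, 30.3 and 62.3 CPM in IP. Its mice differed in both fractions, without overlap (log2 fold change -2.37, SE 0.44, adjusted p = 0.00291). Cyp8b1, the enzyme that sets the share of cholic acid, had 389, 429 and 663 CPM in input and 401, 398 and 609 CPM in IP. The groups overlapped and the gene did not pass (log2 fold change -0.52, SE 0.26, adjusted p = 0.162).

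Of the genes of gluconeogenesis and glycogen 9 of 11 were lower (median -2.08). Pck1, the first committed enzyme of gluconeogenesis, had 655, 3084 and 1966 CPM in input and 237, 953 and 684 CPM in IP. Mouse 1 was lowest and mouse 2 highest in both fractions, so the groups overlapped, and the adjusted p was 0.0207 (log2 fold change -2.08, SE 0.58). G6pc, the glucose 6-phosphatase catalytic subunit, had 338, 631 and 423 CPM in input and 295, 864 and 732 CPM in IP. It did not pass (log2 fold change -0.03, SE 0.35, adjusted p = 0.968). Fatty acid oxidation and ketogenesis had 14 of 15 members lower (median -1.84), with Cpt1a, which admits long fatty acids to mitochondria, at -1.58 and Acadl, a dehydrogenase of beta-oxidation, at -1.23.

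Genes that hepatocytes express by zone of the lobule were lower for 11 of 15 (median -2.08). Cyp1a2, a pericentral cytochrome P450, had 1936, 1854 and 1730.5 CPM in input and 214, 372 and 282 CPM in IP. The fractions were separate (log2 fold change -3.11, SE 0.22, adjusted p = 1.51e-05). Glul, glutamine synthetase of the innermost pericentral hepatocytes, had 912, 824 and 931 CPM in input and 785, 819 and 902 CPM in IP. Its groups overlapped, and it passed with TMM factors (log2 fold change -0.52, SE 0.17, adjusted p = 0.0423) but not with library totals.

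The sinusoidal endothelial list did not move one way. Of 18 members 10 were lower, 1 was higher and 7 did not pass (median -1.25). Lyve1, the hyaluronan receptor of sinusoidal and lymphatic endothelium, had 9.77, 11.8 and 8.69 CPM in input and 0.179, 2.08 and 1.57 CPM in IP. IP 1 was nearly without reads, and no IP library reached the input (log2 fold change -3.46, SE 0.77, adjusted p = 0.00741). Clec4g, a sinusoidal lectin, had 45.6, 34.7 and 39.1 CPM in input and 28.5, 8.99 and 17.5 CPM in IP. There was no overlap between the groups (log2 fold change -1.5, SE 0.43, adjusted p = 0.0233). Gpr182, a receptor of sinusoidal endothelium, had 42.2, 34 and 27.8 CPM in input and 19.6, 11.8 and 29.4 CPM in IP. IP 3 reached the input range, although the test passed (log2 fold change -1.2, SE 0.34, adjusted p = 0.0220). With library totals neither Clec4g nor Gpr182 passed.

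Stab2, a scavenger receptor for hyaluronan on sinusoidal endothelium, had 45.3, 62.9 and 56.5 CPM in input and 86.5, 116 and 116 CPM in IP. Every IP library was above every input library in CPM, and with TMM factors the gene did not pass (log2 fold change 0.51, SE 0.2, adjusted p = 0.0731). With library totals it passed as higher (log2 fold change 0.95, adjusted p = 0.00785). Stab1, its paralog, had 31.2, 34.97 and 38.8 CPM in input and 42.04, 50.6 and 46.8 CPM in IP. The IP libraries were again above input in CPM, and the log2 fold change was -0.02 (adjusted p = 0.955). Oit3 had 29.1, 27.04 and 29.9 CPM in input and 23.04, 31.8 and 6.58 CPM in IP. Its groups overlapped (log2 fold change -0.88, SE 0.5, adjusted p = 0.213). Cdh5, vascular endothelial cadherin, had 33.8, 27.6 and 28.8 CPM in input and 134, 305 and 243 CPM in IP. It was the one member that passed as higher with TMM factors (log2 fold change 2.46, SE 0.26, adjusted p = 1.31e-04). With library totals Pecam1, an adhesion molecule of endothelium, and Dnase1l3, a DNase, passed as higher as well (log2 fold changes 1.27 and 0.79, adjusted p = 0.0255 and 0.0113), which made 4 higher and 6 lower. The whole list held 0.0616, 0.0616 and 0.0588% of the input counts and 0.0635, 0.0852 and 0.0829% of the IP counts. Every IP library was above every input library by this share, but the gain lay in Cdh5. Without the counts of Cdh5 the shares of input and IP overlapped, and the rest of the list did not gain. Without input 1 or without input 2, 6 members were lower in place of 10.

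Stellate cell and fibroblast genes were lower for 11 of 15 members and higher for none (median -1.58). Dcn, decorin, a matrix proteoglycan, had 142, 143 and 144 CPM in input and 22.5, 30.5 and 43.3 CPM in IP. Input was tight and all IP libraries were lower (log2 fold change -2.6, SE 0.22, adjusted p = 3.64e-05). Reln, a secreted glycoprotein of stellate cells, had 65.5, 69.5 and 51.05 CPM in input and 27.1, 33.96 and 21.8 CPM in IP. Input and IP libraries did not overlap (log2 fold change -1.58, SE 0.25, adjusted p = 0.00112). Lrat, the enzyme that stores retinol as ester in stellate cells, had 24.6, 31.04 and 18.9 CPM in input and 13.7, 19.2 and 20.6 CPM in IP. IP 3 was above input 3, and the gene passed with TMM factors (log2 fold change -0.92, SE 0.27, adjusted p = 0.0265) and not with library totals (adjusted p = 0.265). Colec11 fell by 1.84, while Pdgfrb and Des, a receptor and a filament of stellate cells, had -1.03 and -0.5 and did not pass.

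Cholangiocyte genes were low in both fractions. Of 9 members 8 were tested, of which 2 were lower, Krt19 and Spp1, against 16.7% of all genes tested, and 6 did not pass (median -1.34). A count this small does not set the list apart from all genes. Krt19, a keratin of bile ducts, had 2.56, 2.22 and 0.966 CPM in input and was at 0 in all IP libraries, at least 18.9-fold below input by the floor (adjusted p = 0.0110, and 0.0529 with a replicate block, which left Spp1 as the 1 lower member). Spp1, osteopontin, made by bile ducts and by other cells, had 35.8, 39.1 and 40.6 CPM in input and 26.3, 12.7 and 12.01 CPM in IP. The groups lay apart (log2 fold change -1.55, SE 0.38, adjusted p = 0.0122). Epcam, an adhesion molecule of bile duct cells, had 0.233, 2.22 and 1.84 CPM in input and 0.609, 4.93 and 1.25 CPM in IP. Its groups overlapped.

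**Figure D4:**
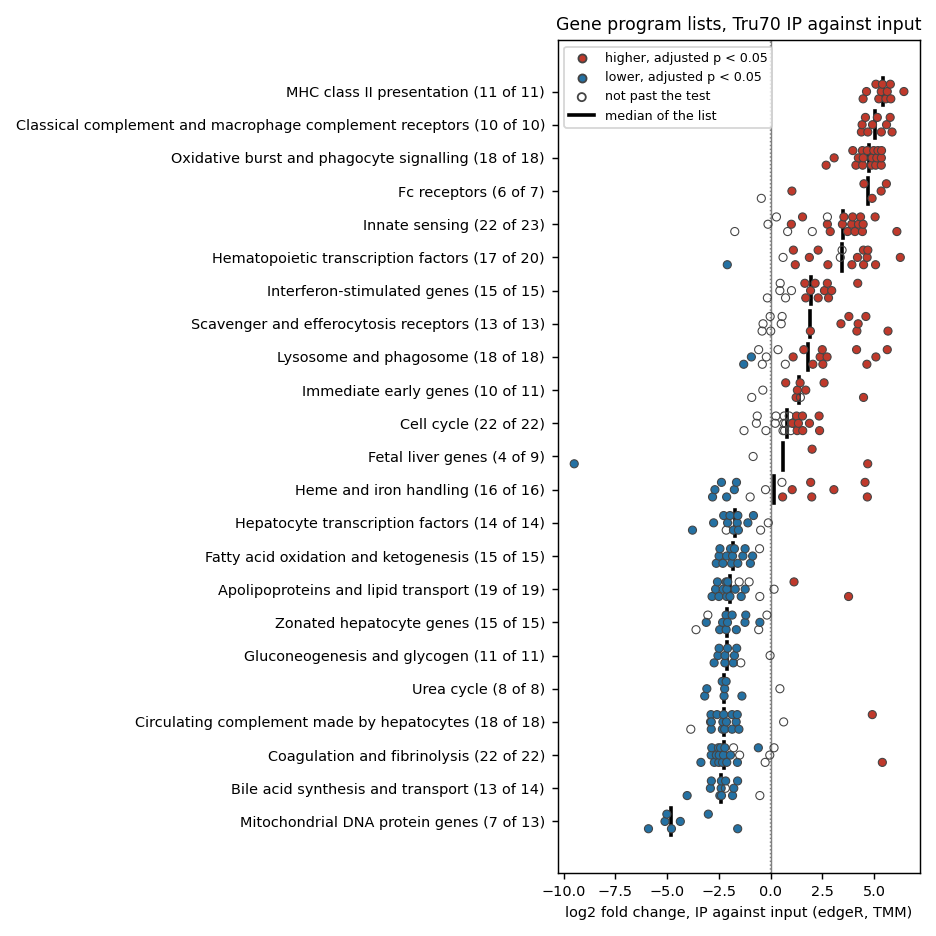
Log2 fold change of IP against input for the tested members of 23 gene program lists, with 1 point per gene, the number tested of all members in brackets and a bar at the list's median. The medians run from 5.4 for MHC class II presentation to -4.79 for genes of mitochondrial DNA, and the heme and iron list holds called genes on both sides.

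Programs shared by many cell types changed in part. For innate sensing 16 of 23 members were higher and none lower (median 3.5). Tlr4, the receptor for bacterial lipopolysaccharide, had 0, 0.917 and 3.55 CPM in input and 25.02, 32.8 and 36.2 CPM in IP. All IP libraries were above input (log2 fold change 3.92, SE 1.05, adjusted p = 0.0177). Tlr4 lost the call without input 2 or without IP 3. Tlr5, the receptor for flagellin, had 6.01, 5.47 and 4.74 CPM in input and 0, 1.48 and 5.55 CPM in IP. Its groups overlapped and it did not pass (log2 fold change -1.73, SE 1.29, adjusted p = 0.350). Of the interferon-stimulated genes 10 of 15 were higher (median 1.93), among them Oas1a, of the pathway that activates RNase L, with 4.21, and Ifit3 with 2.95. Ifit1 had a log2 fold change of 0.72 and did not pass. Mx1 passed (adjusted p = 0.0471), but not with a replicate block (adjusted p = 0.0945). It also lost the call in 5 of the 6 fits that leave out 1 library.

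Lysosome and phagosome genes were higher for 11 of 18 and lower for 2 (median 1.82). Ctss, cathepsin S, a protease of antigen-presenting cells, had 31.7, 23.1 and 31.4 CPM in input and 1718, 2122 and 1932 CPM in IP. The groups lay far apart (log2 fold change 5.63, SE 0.24, adjusted p = 3.42e-06). Ctsb, cathepsin B, had 693, 737 and 668 CPM in input and 3526, 6004 and 5467 CPM in IP. It rose from a higher input level (log2 fold change 2.39, SE 0.21, adjusted p = 3.92e-05). Ctsl, cathepsin L, had 763, 662 and 794 CPM in input and 456, 537 and 582 CPM in IP. It fell with TMM factors (log2 fold change -0.93, SE 0.17, adjusted p = 0.00295) and did not pass with library totals. Npc1, the cholesterol transporter of late endosomes, fell by 1.3 and did not pass with library totals either. Lamp1 and Lamp2, membrane proteins of lysosomes in all cells, had 0.36 and -0.21 and did not pass.

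The heme and iron list was divided: 7 of 16 members were higher and 6 lower (median 0.15). Hmox1, heme oxygenase 1, which breaks down heme, had 19.8, 21.7 and 17.9 CPM in input and 481, 887 and 690.3 CPM in IP. No library of one fraction reached the other (log2 fold change 4.67, SE 0.25, adjusted p = 4.97e-06). Slc40a1, ferroportin, the iron exporter, had 143, 136 and 125 CPM in input and 1164, 1823 and 1560.5 CPM in IP. It rose from an input level of the same order as that of Clec4f (log2 fold change 3.06, SE 0.2, adjusted p = 1.14e-05). Slc11a1, the iron transporter of phagosomes, and Slc48a1, which carries heme out of them, rose by 4.56 and 1.04. Blvra, Blvrb and Hfe2 were the other members that rose. With 1 library left out, the log2 fold change of Hfe2 ran from 1.93 to 2.05, and Blvrb lost the call in 4 of the 6 fits. Fth1, the heavy chain of ferritin, had 2712, 2759.6 and 2842 CPM in input and 753, 1345 and 1279.6 CPM in IP. Each IP library was lower (log2 fold change -1.75, SE 0.21, adjusted p = 2.51e-04). The others that fell were Tfr2, Hamp, Hpx, Hp and Cp, products of hepatocytes, by 2.8, 1.65, 2.69, 2.12 and 2.37.

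Cell cycle genes were higher for 9 of 22 members and lower for none (median 0.81), while with a replicate block Cdc20, an activator of the anaphase complex, passed as lower (log2 fold change -1.2, adjusted p = 0.029). Mki67, a protein of cycling cells, had 10.9, 20 and 15.3 CPM in input and 43.01, 58.9 and 57.1 CPM in IP. The fractions were separate (log2 fold change 1.34, SE 0.27, adjusted p = 0.00441). Top2a, topoisomerase II alpha, had 5.89, 17.5 and 8.26 CPM in input and 29.7, 58.9 and 71.8 CPM in IP. It rose as well (log2 fold change 1.88, SE 0.43, adjusted p = 0.00885). Ccnb1, Ccnb2, Ccna2 and Cdk1, regulators of mitosis, had -0.65, 0.6, 0.68 and 0.9 and did not pass. With library totals 14 of the list were higher. Of the immediate early genes, which cells switch on within minutes of a stimulus or of handling, 7 of 11 were higher (median 1.36), and with a replicate block Jun no longer passed (adjusted p = 0.0508) while Hspa1b, a heat shock protein, passed as lower (log2 fold change -1.34, adjusted p = 0.0187). Fos had 1.51, 0.385 and 0 CPM in input and 16.2, 27.4 and 11.97 CPM in IP. There was no overlap between the groups (log2 fold change 4.49, SE 1.11, adjusted p = 0.0125). Egr1 had 29.8, 40.8 and 14.3 CPM in input and 33.3, 29.2 and 23.7 CPM in IP. Its groups overlapped (log2 fold change -0.38, SE 0.38, adjusted p = 0.502).

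Of the fetal liver genes 5 of 9 were not tested, and the embryonic globins Hbb-y, Hbb-bh1 and Hba-x had no unique counts in any of the 6 libraries. Their RPKM, which include reads that the counts left out, were not 0: Hba-x had 8.77, 5.36 and 5.23 RPKM in input and 1037, 455 and 436 RPKM in IP, and Hbb-y 0 in input and 1.43, 0.452 and 0.497 RPKM in IP. Embryonic and adult globin reads cannot be told apart here, so the level of these genes is uncertain. H19, an imprinted noncoding RNA, had 5.27, 10.8 and 3.89 CPM in input and 28.1, 58.2 and 21.3 CPM in IP. Mouse 2 was highest in both fractions, and the call was lost without input 1 or without IP 2 (log2 fold change 2.0, SE 0.49, adjusted p = 0.0120). Igf2, its imprinted neighbour, a growth factor, had 0.116, 0.207 and 0.748 CPM in input and 11.3, 8.69 and 18.7 CPM in IP. Each IP library was higher (log2 fold change 4.69, SE 0.82, adjusted p = 0.00210). Afp, alpha-fetoprotein, had 3.33, 1.86 and 2.74 CPM in input and 0, 4.09 and 2.15 CPM in IP. Its groups overlapped (log2 fold change -0.84, SE 1.4, adjusted p = 0.706). Gpc3, a heparan sulfate proteoglycan, had 3.02, 3.73 and 0.903 CPM in input and no unique counts in IP (adjusted p = 0.00795), while 2 of the 3 IP libraries had RPKM above 0, so no fold is given.

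Transcripts of the mitochondrial chromosome, which mitochondrial ribosomes without Rpl22 translate, had the lowest median of the 37 lists. The chromosome held 3.296, 3.45 and 4.11% of the input counts and 0.361, 0.440 and 0.442% of the IP counts. All 7 tested protein genes of 13 were lower (median -4.79). mt-Nd5, a subunit of respiratory complex I, had 1776, 2256 and 2883 CPM in input and 51.4, 52.95 and 51.7 CPM in IP. The IP libraries were nearly equal (log2 fold change -5.9, SE 0.28, adjusted p = 3.92e-06). mt-Nd1, another subunit of complex I, had 3490.2, 3592 and 4528 CPM in input and 1428, 1922 and 1884 CPM in IP. Its fall was the smallest of the list (log2 fold change -1.59, SE 0.2, adjusted p = 3.04e-04). The other 6, mt-Nd3, mt-Nd4l, mt-Co2, mt-Co3, mt-Atp6 and mt-Atp8, were listed at or near 0 in both fractions. The deposited counts left out reads with more than 1 place in the genome, and pseudogene copies of mitochondrial DNA lie on chromosome 1, so differences within this list are uncertain.

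Among genes with a mean of at least 10 CPM, an adjusted p under 0.05 and the same direction in all 3 mice, the 10 largest rises were those of S100a8 (8.92), Ms4a7 (7.94), Adamdec1 (7.36), Cd3d (7.15), Pik3r5 (6.89), Clec10a (6.67), Pmaip1 (6.63), Spn (6.6), Arhgap15 (6.58) and Spib (6.53) on the log2 scale. Adamdec1, a secreted metalloprotease of macrophages, had 0.465, 0.651 and 0.0312 CPM in input and 76.3, 95.3 and 81.8 CPM in IP. No input library came near the IP range (log2 fold change 7.36, SE 0.63, adjusted p = 3.91e-05). Ms4a7, a membrane protein of macrophages, had 0, 0 and 0.218 CPM in input and 24.9, 27.6 and 26.1 CPM in IP. Input 3 was the only input library with reads (log2 fold change 7.94, SE 0.94, adjusted p = 2.29e-04). The order of these genes rests on few input reads: with 1 library left out, the log2 fold change of S100a8 ran from 8.37 to 12.64, that of Ms4a7 from 7.32 to 12.46 and that of Cd3d from 6.58 to 12.34. Clec10a is a lectin of macrophages and dendritic cells, Spn the sialoglycoprotein CD43 of leukocytes, and Spib a relative of PU.1 in B cells and plasmacytoid cells.

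The 10 largest falls held 5 mitochondrial genes, mt-Nd5, mt-Nd2, mt-Nd6, mt-Co1 and mt-Cytb, from -4.36 to -5.9. The largest fall was that of ENSMUSG00000035349, which no table used here names, with 22.4, 30.9 and 24.02 CPM in input and 0.179, 0.369 and 0.835 CPM in IP (log2 fold change -6.25, SE 0.52, adjusted p = 3.46e-05). Ugt1a9, a glucuronosyltransferase, had 48.3, 55.8 and 39.5 CPM in input and 1.36, 1.88 and 3.98 CPM in IP. Input and IP libraries did not overlap (log2 fold change -4.77, SE 0.39, adjusted p = 3.21e-05). Ugt1a6b, a gene of the same locus, fell by 4.18, and the members of this locus share exons, which makes their separate counts uncertain. Slc6a9, a glycine transporter, and Sntb1, a syntrophin, fell by 5.0 and 4.12.

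By the deposited RPKM the highest means in IP were those of Hba-a2, Hba-a1, Hbb-bs, AY036118 and Gm42418, and in input those of Gm29216, AY036118, mt-Co1, mt-Ts1 and Gm28661. Hba-a2 had 1682, 1511 and 1131 RPKM in input and 112201, 99119 and 76505 RPKM in IP. AY036118 and Gm42418, transcripts annotated over a ribosomal RNA repeat on chromosome 17, had counts of 0 in all 6 libraries, and AY036118 had 23417, 5526 and 11679 RPKM in input and 39152, 16277 and 18709 RPKM in IP. Gm29216 and Gm28661 are pseudogenes on chromosome 1, and mt-Ts1 is a mitochondrial transfer RNA. The counts of these 3 genes were at most 2.43 CPM in each library, so their RPKM rests on reads that the counts left out. Over 7637 genes with an input mean above 10 CPM, the length implied by the ratio of CPM to RPKM had a median of 1.31 times the gene span and of 6.0 times the exon bases, and so levels of genes are compared here per kilobase of exon and not by RPKM.

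**Figure D5:**
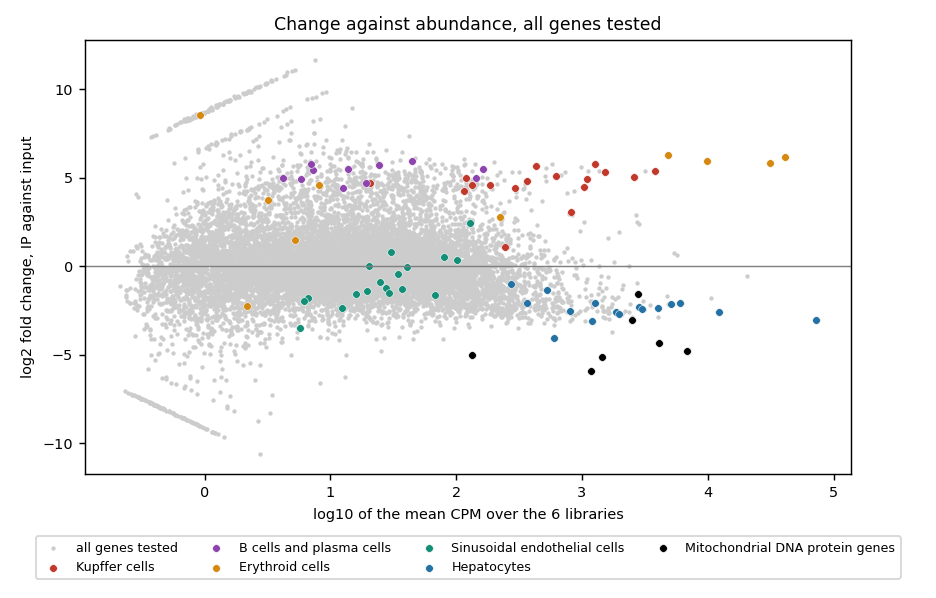
Log2 fold change of IP against input over the log10 of the mean CPM of the 6 libraries for the 14707 genes tested, with members of 6 lists in colour. Kupffer cell and globin genes lie above 0 and hepatocyte genes below 0 at high abundance, B cell genes above 0 at low abundance, and the straight lines of grey points at the edges are genes with a fraction at or near 0.

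The change was set beside that of the SMTseq4 libraries, made with SMART-Seq v4 from 4 ng of aliquots of the same RNA and sequenced at another centre, so that kit, amount and centre cannot be told apart. Of 16504 genes, 61 (0.370%) had a change that differed, 57 (0.345%) lower and 4 (0.0242%) higher in Tru70, in an interaction term of edgeR. With a replicate block 173 differed. None of 14 genes chosen for this comparison passed. Clec4f had 5.37 in Tru70 and 4.72 in SMTseq4 (difference 0.65, SE 0.32, adjusted p = 0.337). Alb had -3.02 and -2.89 (difference -0.13, SE 0.29). S100a8 and Krt19 had the smallest adjusted p of the 14, with differences of 3.72 (SE 0.89, adjusted p = 0.0760) and -6.17 (SE 1.5, adjusted p = 0.0869), and both were at or near 0 in one Tru70 fraction. Gfi1 had 0, 0.0813 and 0.132 CPM in SMTseq4 input and 0.694, 1.38 and 1.62 CPM in SMTseq4 IP, so every IP library had reads there.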

How the data were processed

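Livers of 3 mice were frozen, polysomes were precipitated with an antibody to HA, and TruSeq libraries were made from 70 ng of RNA of each input and IP. The authors trimmed the reads, aligned them to GRCm38 with TopHat and deposited raw counts of uniquely placed reads on exons of Ensembl 84 genes. The authors also deposited RPKM values, which include reads with several places in the genome. The kit does not mark strand, and the strand setting of the counting is not given in the sources used here, so that antisense and overlapping genes cannot be separated. The deposited files held no sample column without a label (0 such columns).

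Here genes were matched by identifier to GENCODE M21 on GRCm38 (47310 matched, 419 not). The quasi-likelihood test of edgeR 4.0.16 (R 4.3.3, limma 3.58.1) was run on the counts with TMM factors, filterByExpr and Benjamini-Hochberg adjustment at 0.05, fitted on the 6 Tru70 libraries. Total counts were 25797283 to 33797108 per library. Promoter sequences came from RefSeq (GRCm38.p6) and were searched over 250 bases, but shown only before the start of the GENCODE gene. Tables and plots were made with Python 3.11.15, numpy 2.4.6, pandas 2.3.3 and matplotlib 3.10.9. Alternatives were a replicate block, DESeq2 1.42.0, other scaling factors, other filters, glmTreat against a 2-fold change, and leaving out each library. The p-values rest on the spread between the 3 libraries within each fraction, in which mouse, IP and library preparation are mixed, and not on the paired change of each mouse. The comparison with SMTseq4 also counted libraries from aliquots of the same RNA as separate.

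Same-numbered input and IP libraries came from the same mouse. The deviations of their log2 CPM from the group means had correlations of 0.160, 0.126 and 0.172 across 13638 genes, against -0.155 to -0.0264 for different numbers, so the numbers pair the samples. The test was made without the block, since the methods name none.

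The test was checked on simulated data with known changes. Most changes of up to 4-fold and some of 8-fold were not called there, so a gene that did not pass may still have changed. Far fewer genes were changed there than were called in the real libraries, and the adjustment for multiple tests is stricter in that case. The share of changes missed may therefore differ here.

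Genes were named by a rule: Gfi1 and Rpl22, members among the first 6 of each list, up to 5 called against the direction of their list, the 10 largest rises and 10 largest falls at a mean of at least 10 CPM with the same direction in all 3 pairs, and the 5 genes highest by RPKM in each fraction. Members that mark the ends of a range, that complete a count or that did not pass were in part chosen after their values were seen. The comparison, the lists and the rule were chosen with earlier results of these data known. A few genes named by the rule are not reported here.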

Additional observations from a re-analysis of the deposited data

Results flagged for a closer look

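The change between input and IP differed between the Tru70 and SMTseq4 libraries for 61 of 16504 genes (0.370%) in the interaction term of the edgeR fit, 57 lower and 4 higher in Tru70. Of the 57, 28 had log2 fold changes of opposite sign with both kits, 10 were at 0 in all 3 Tru70 IP libraries, and 12 had at most 3 counts in each of them. Over all 16504 genes tested the same counts were 3505, 758 and 900. The median exon length of the 57 was 8481 bases (56 genes with a length), against 3749 over all genes tested and 2217.5 for the 4 that were higher in Tru70. Among them were Exph5, with -8.70 in Tru70 and -0.65 in SMTseq4, Ncor1, a nuclear receptor corepressor, with -1.12 and 0.57, Kmt2e, a chromatin protein, with -0.44 and 1.59, Ppara, the receptor that drives fatty acid oxidation in hepatocytes, with -2.75 and -0.88, and mt-Nd5 with -5.90 and -3.79. The part of length, kit and sequencing centre in these differences was not tested.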

How the results depend on the processing

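Of 464 genes followed, 362 passed, and 324 of them still passed with each of the 6 libraries left out in turn. No gene that passed reversed its direction under the 14 alternatives. Against a 2-fold change (glmTreat), 1444 genes were higher and 968 lower, with 3 sinusoidal and 1 cholangiocyte members lower. With library totals 1462 genes were lower, with 6 sinusoidal members lower in place of 10. With a filter of at least 1 CPM in 3 libraries, 1 cholangiocyte member was lower in place of 2. Without one library, 2065 to 2933 genes were higher and 1713 to 2689 lower, 5 to 9 monocyte members were higher, 6 to 10 sinusoidal members lower and 1 to 3 cholangiocyte members lower. The smallest of these list counts were those without IP 2 (monocytes, 5), without input 1 or input 2 (sinusoidal, 6) and without input 1 (cholangiocytes, 1), and the cause was not tested. DESeq2 called 3167 genes higher and 2767 lower, and 2666 were higher and 2457 lower with the 4 globin genes left out of the totals and factors. With a replicate block 2604 genes were higher and 2623 lower, 1 cholangiocyte member was lower, and 173 genes in place of 61 differed from SMTseq4. The block took 8 of the followed genes out of the calls and added 12, and changed no other call among them. Of 322 counts for program lists under these settings, 312 stayed within 1.5 times the reported count.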

Other observations

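Gene families grouped by symbol, chosen after the values were seen, gave further counts beside the 18.1% higher and 16.7% lower of all genes tested. Of 66 tested cytochrome P450 genes, enzymes of drug, steroid and bile acid metabolism, 45 were lower and 2 higher, with a median log2 fold change of -2.19. Of the Ugt genes, which conjugate bilirubin, steroids and drugs with glucuronic acid, 12 of 12 tested were lower (median -3.58), with shared exons in the Ugt1a locus. Among Serpina genes, secreted protease inhibitors, 10 of 17 tested were lower and 1 higher (median -1.84). Of 18 tested Ccl and Cxcl chemokine genes 10 were higher and 1 lower (median 3.19), and of 10 Gbp genes, interferon-induced GTPases, 6 were higher and none lower (median 2.34). Cytosolic ribosomal protein genes had 1 of 74 higher and 7 lower (median 0.13), and Slc transporter genes 51 of 248 higher and 71 lower (median -0.17).

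Of 357 tested lincRNA and antisense genes 25 were higher and 22 lower. AU020206, a lincRNA gene, had 3.06, 4.71 and 2.87 CPM in input and 43.6, 42.7 and 42.7 CPM in IP, and all IP libraries were above input (log2 fold change 3.18, SE 0.31, adjusted p = 7.12e-05). The lincRNA gene 1810008I18Rik had 80.4, 89.0 and 104.6 CPM in input and 18.3, 13.6 and 25.2 CPM in IP, and all IP libraries were below input (log2 fold change -2.70, SE 0.27, adjusted p = 8.04e-05). Of 1101 tested processed pseudogenes, which share reads with their parent genes, 47 were higher and 127 lower.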
